A study of Mus musculus with 9 samples.

Results

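The G1 cyclins and the cyclin-dependent kinase (CDK) inhibitors were followed as 10 genes chosen by name: the D cyclins *Ccnd1*, *Ccnd2* and *Ccnd3*, the E cyclins *Ccne1* and *Ccne2*, the Cip/Kip inhibitors *Cdkn1a*, *Cdkn1b* and *Cdkn1c*, and the Ink4 inhibitors *Cdkn2c* and *Cdkn2d*. The choice was made with earlier results of these data known. All 10 were found among the 19369 genes listed in at least 1 sample, and all 10 passed the filter on low counts that left 14771 genes for testing. RNA-Seq was done on 9 samples from wild-type C57BL/6 mouse embryos, 3 for each of the embryonic days E10.5, E14.5 and E16.5. Each E10.5 sample pooled the periocular neural crest (pNC), the mesenchyme that migrates around the early eye, of 26 eyes, after dispase treatment and removal of the ectoderm, lens vesicle and optic cup. Each E14.5 sample pooled 18 corneas and each E16.5 sample 12 corneas, in which epithelium, stroma and endothelium were measured together. No embryo was treated or mutated, so stage is the only factor, but it changes together with the tissue. A sample of E10.5 was dissected as mesenchyme, and a sample of the later stages as a whole cornea.

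A cell leaves G1 and begins DNA replication when cyclins activate their kinases. D cyclins respond to growth factors and bind CDK4 and CDK6, whereas E cyclins bind CDK2 later in G1, and both kinase complexes phosphorylate the retinoblastoma family of pocket proteins, which releases E2F transcription factors. Ink4 proteins bind CDK4 and CDK6 directly, Cip/Kip proteins bind cyclin-CDK complexes, and both classes are known for restraining division as progenitors differentiate.

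Totals of expected counts, the deposited estimates of reads per gene, ranged from 8745161 to 9069023 per sample. FPKM, the fragments of a gene scaled to the length of its transcript and to the mapped fragments of the sample, was used for levels, because it allows genes of different length to be compared. Marker genes were set against the labels. The summed FPKM of 5 keratocyte genes ranged from 104 to 160 in pNC, from 2164 to 5628 in the younger and from 8742 to 10621 in the older corneas, and that of 8 epithelial genes from 33.2 to 44.5, from 659 to 2134 and from 5270 to 7623. Red blood cell genes were present at every stage, with summed FPKM of 5044 to 7885, 1822 to 2344 and 649 to 1357. The sum of blood vessel genes was 75.7 to 132, 41.9 to 78.6 and 22.6 to 34.6. That of skeletal muscle genes was 7.45 to 8.24 in pNC and at most 0.72 in the corneas. Markers of cells other than crest were thus present in the pNC samples and lower later. In such bulk samples, a change in the number of cells of a type and a change in RNA per cell cannot be told apart.

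One E14.5 sample stood apart from the other two. In E14.5 replicate 1 the epithelial sum was 2134, against 659 and 782 in replicates 2 and 3, and the keratocyte sum was 5628, against 2164 and 3167. The epithelial genes did not all differ alike. Across the E14.5 samples, *Krt5* ranged from 342.86 to 1042.15 FPKM and *Krt12* from 0.62 to 101.52. *Epcam* ranged only from 36.47 to 41.39 and *Trp63* from 37.95 to 46.18. For 7 of the 10 genes E14.5 replicate 1 lay beyond both other E14.5 samples on the side of E16.5. For 2 it lay between them, and for *Cdkn2c* it lay beyond them on the other side. The share of all tested genes that did so was not counted. Some distances were small, as for *Cdkn1b* (20.46 FPKM against 19.21 and 19.54). For *Cdkn1c* its 191.35 FPKM was also next to the lowest E10.5 sample (191.48). In E14.5 replicate 1 the *Cdkn1a* FPKM was 3.31 times, the *Cdkn1c* FPKM 1.76 times and the *Ccnd1* FPKM 0.502 times the mean of the other two. The part of tissue makeup in the differences below was not tested. The values that moved most with this sample are also given without it.

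**Figure D1:**
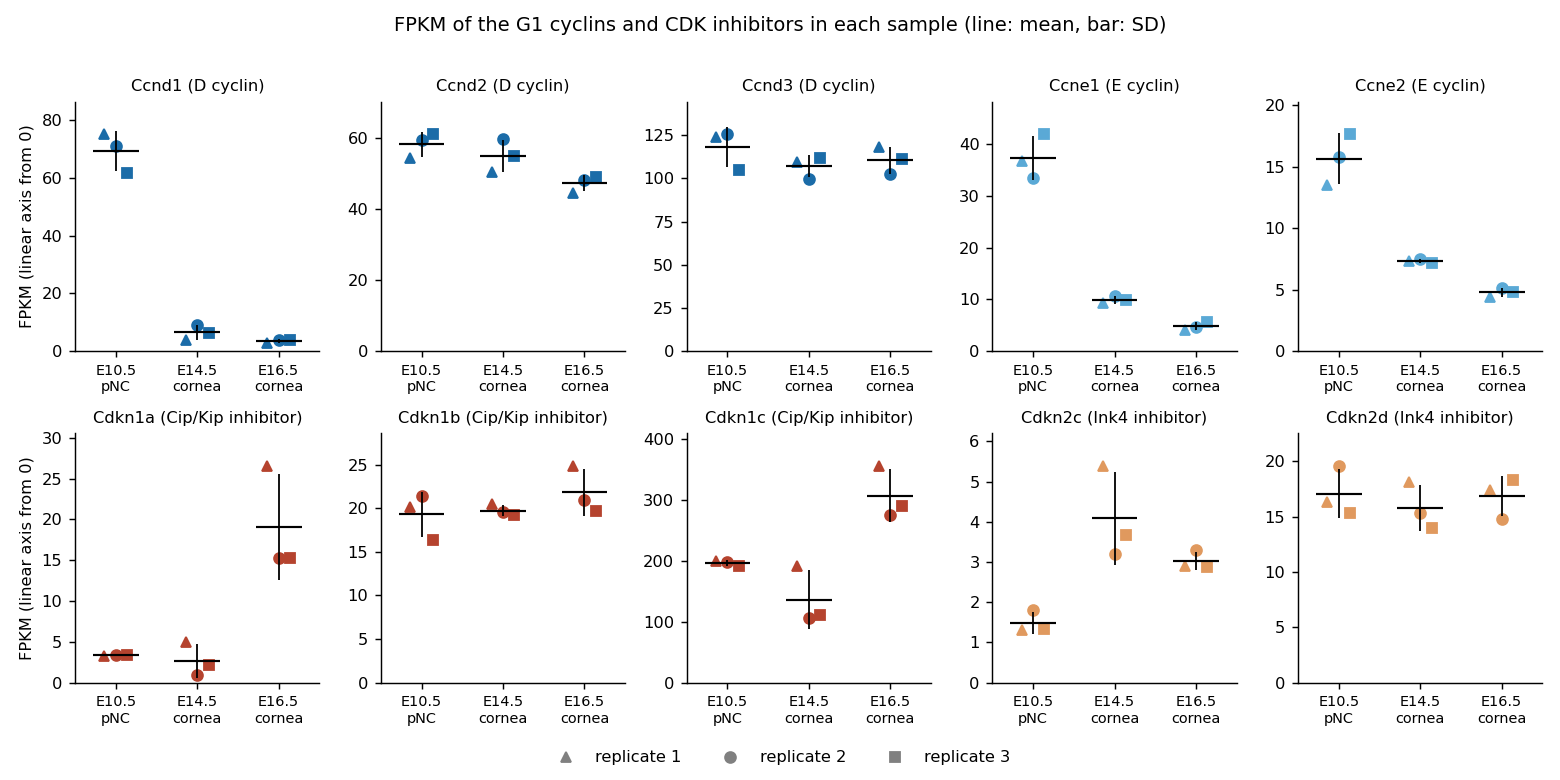
FPKM of the 10 genes in each sample, on linear axes that start at 0 and differ between panels, by stage. Triangles, circles and squares are replicates 1, 2 and 3, the horizontal line is the mean and the vertical bar the SD (n = 3). *Ccnd1*, *Ccne1* and *Ccne2* fell from E10.5 to E14.5, *Cdkn1a* and *Cdkn1c* rose from E14.5 to E16.5, and the triangle of E14.5 lies high for both inhibitors.

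The 3 pairs of stages were compared in 1 edgeR quasi-likelihood model, and a gene was called when its p, adjusted by Benjamini-Hochberg, was under 0.05 and its log2 fold change was at least 1 in size, that is, a 2-fold change. Between E10.5 and E14.5, 3 of the 10 genes were called lower (*Ccnd1*, *Ccne1* and *Ccne2*) and 1 higher (*Cdkn2c*), while 7.97% of all tested genes were called lower and 13.6% higher. Between E10.5 and E16.5, the same 3 cyclins were called lower and *Cdkn1a* and *Cdkn2c* higher, where 15.4% of all genes were lower and 19.4% higher. Between E14.5 and E16.5, *Cdkn1a* and *Cdkn1c* were called higher, which 6.26% of all genes were. No member was called lower in that last comparison by edgeR, by the DESeq2 Wald test or by NOISeq, where 5.47% of all genes were lower by edgeR. At an unadjusted edgeR p under 0.05, 3 members were lower, and limma on log2(FPKM + 0.1) called 1. The median log2 fold change of the 10 genes was -0.26, 0.09 and 0.08 in the 3 comparisons, in the order given, beside 0.01, 0.00 and -0.02 for all tested genes. The comparisons share samples, so they are not independent of each other. Because the 10 genes were chosen with earlier results known, their counts beside those of all genes are a description and no test of the set.

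**Figure D2:**
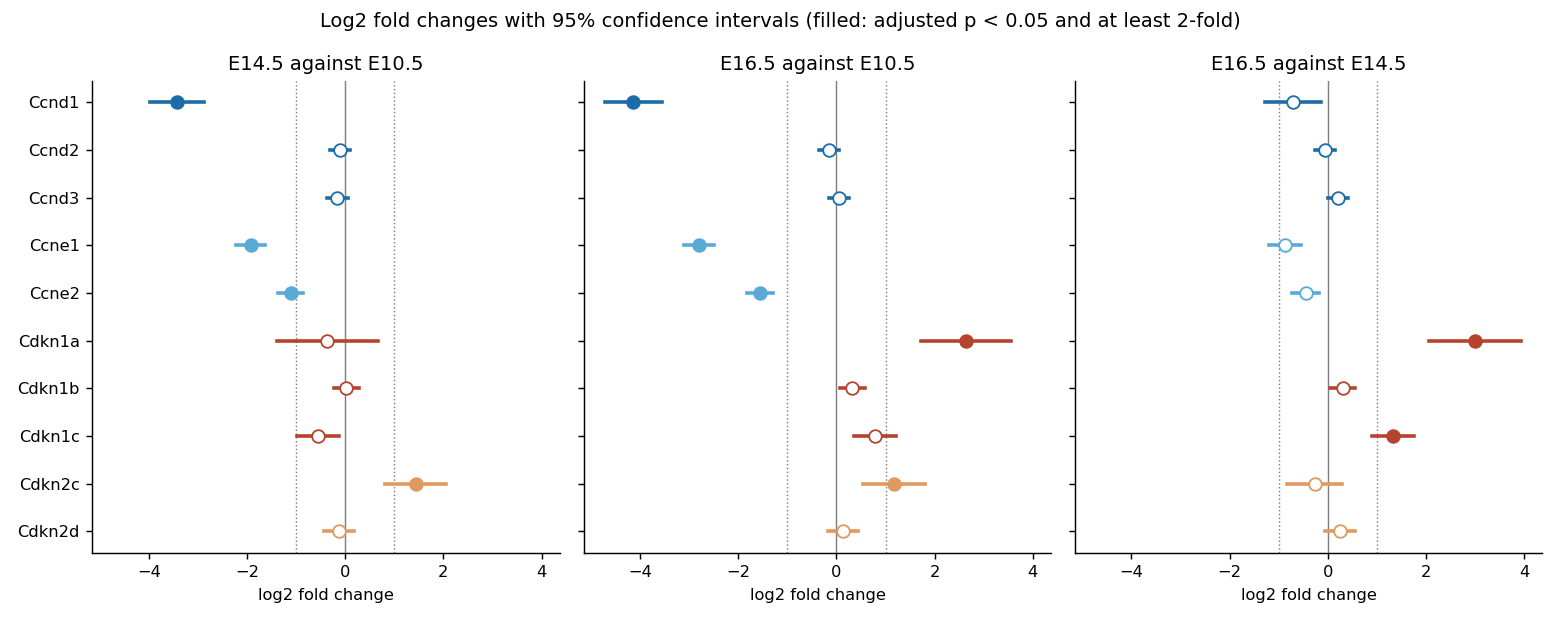
Log2 fold change (x axis) of each gene (y axis) in the 3 comparisons of stages, from the edgeR model of 9 samples. Points are estimates, bars are 95% confidence intervals, filled points were called, and dotted lines mark a 2-fold change. Both E cyclins and *Ccnd1* are filled on the left in the comparisons with E10.5, and *Cdkn1a* and *Cdkn1c* are filled on the right in the comparison of the cornea stages.

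Among the D cyclins, only *Ccnd1* was called in any comparison. *Ccnd1* (cyclin D1, Entrez Gene 12443, GRCm38 chromosome 7, 144929931 to 144939831) encodes a cyclin that many growth factor pathways induce. Its FPKM was 75.1, 71.0 and 61.6 in E10.5 replicates 1, 2 and 3, then 3.91, 9.16 and 6.42 at E14.5, and 2.79, 4.06 and 3.77 at E16.5. Every corneal sample was far below every pNC sample, while the 2 cornea stages overlapped. From E10.5 to E14.5, *Ccnd1* fell by 3.43 on the log2 scale (SE 0.247, edgeR adjusted p = 1.7e-06), a 10.8-fold decrease. By E16.5 it fell by 4.14 (SE 0.261, edgeR adjusted p = 3.3e-07), a 17.6-fold decrease. The change between the cornea stages, -0.71 (95% confidence interval -1.29 to -0.13), did not pass the test (edgeR adjusted p = 0.0566). Without E14.5 replicate 1 it was -0.98 with an edgeR adjusted p of 6.6e-04, just under the fold minimum, and without E14.5 replicate 2 it was -0.40 (edgeR adjusted p = 0.237). Without E14.5 replicate 1, *Ccnd1* changed by -3.16 in the first interval, E10.5 to E14.5.

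*Ccnd2* (cyclin D2, Entrez Gene 12444, chromosome 6, 127125162 to 127152188) kept a level within a narrow range. FPKM was 54.5, 59.7 and 61.2 in the E10.5 samples, 50.7, 59.8 and 55.0 at E14.5, and 44.8, 48.2 and 49.1 at E16.5. The E16.5 samples were below all others in FPKM, but with TMM scaling the log2 fold change from E10.5 to E16.5 was -0.16 (95% confidence interval -0.36 to 0.05) and edgeR did not call it (adjusted p = 0.151). To E14.5 its change was -0.10 (95% confidence interval -0.30 to 0.10).

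*Ccnd3* (cyclin D3, Entrez Gene 12445, chromosome 17, 47505051 to 47599689) had the highest FPKM of the 3 D cyclins in every sample. Its FPKM was 124, 125 and 105 at E10.5, 109, 99.8 and 112 at E14.5, and 118, 103 and 111 at E16.5. All 3 stages overlapped. Its change on the log2 scale was -0.16 (95% confidence interval -0.37 to 0.05) from E10.5 to E14.5 and 0.05 (95% confidence interval -0.16 to 0.26) from E10.5 to E16.5, and the sign of the latter turned with library totals in place of TMM.

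With *Ccnd2* and *Ccnd3* near their starting levels, the makeup of D cyclin transcripts differed between pNC and cornea. *Ccnd1* held 28.1% ± 1.33 (SD, n = 3) of the summed D cyclin FPKM in the E10.5 samples, 3.84% ± 1.53 in those of E14.5 and 2.20% ± 0.477 in those of E16.5. *Ccnd3* rose from 48.0% ± 1.64 to 63.5% ± 3.89 and 68.4% ± 2.60 of that sum. With TMM-scaled counts, which are not scaled to length, *Ccnd3* held 28%, 38.2% and 43.2%, *Ccnd2* was the largest with 40.6%, 57.4% and 54.1%, and *Ccnd1* held 31.4%, 4.39% and 2.65%. The summed FPKM was 245.9 ± 15.6, 168.6 ± 4.63 and 161.5 ± 5.84 FPKM. These shares are independent of library scaling and are given as a description, without a test.

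**Figure D3:**
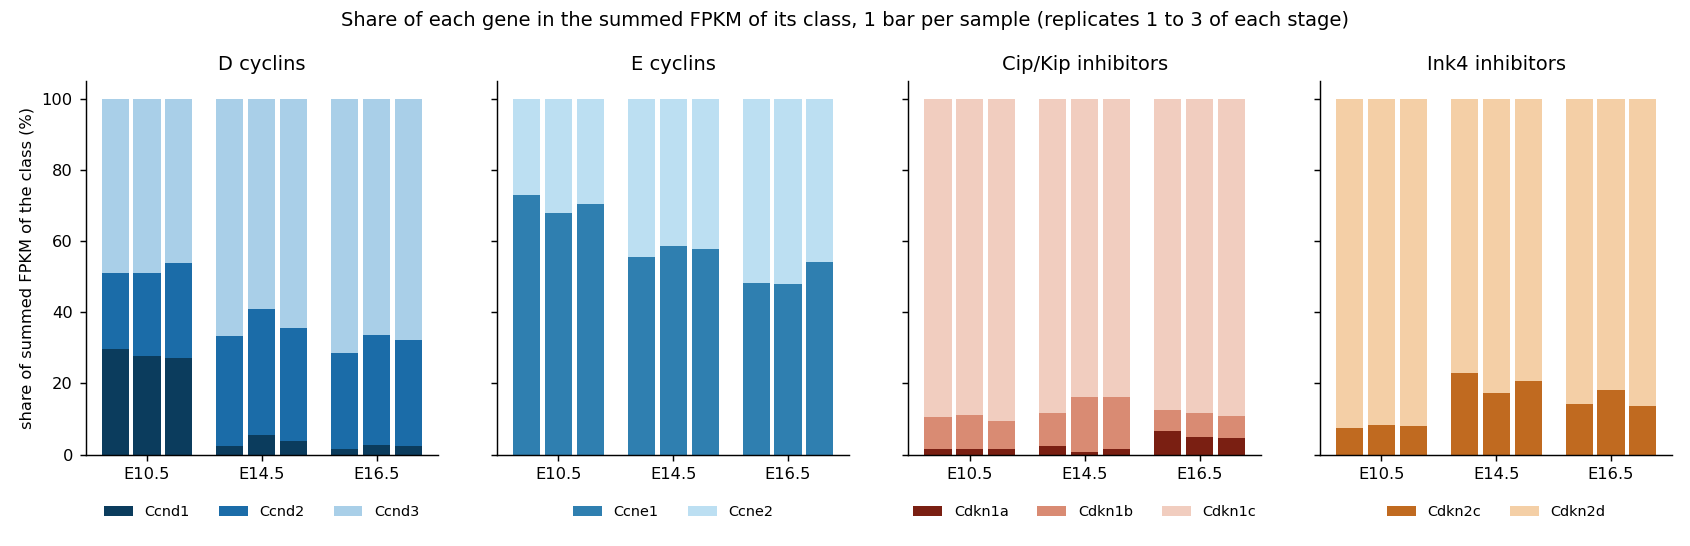
Share of each gene in the summed FPKM of its class (y axis, percent), with 1 bar for each sample and the 3 replicates of a stage side by side (x axis). The dark *Ccnd1* segment is 27.0% to 29.6% of the D cyclin sum at E10.5 and at most 5.43% in the cornea, and *Cdkn1c* holds at least 83.9% of the Cip/Kip sum in all 9 samples.

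Both E cyclins fell at each step in the mean. *Ccne1* (cyclin E1, Entrez Gene 12447, chromosome 7, 38097984 to 38107490), an activator of CDK2 and a known E2F target, had an FPKM of 36.6, 33.5 and 41.8 at E10.5, 9.21, 10.6 and 9.88 at E14.5, and 4.08, 4.77 and 5.69 at E16.5. The 3 stages did not overlap. *Ccne1* fell by 1.93 on the log2 scale to E14.5 (SE 0.130, edgeR adjusted p = 1.1e-06), a 3.80-fold decrease, and by 2.79 to E16.5 (SE 0.140, edgeR adjusted p = 9.6e-08), a 6.94-fold decrease. Between the cornea stages the change of -0.87 (SE 0.144) had an edgeR adjusted p of 0.00166 but stayed under the 2-fold minimum.

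*Ccne2* (cyclin E2, Entrez Gene 12448, chromosome 4, 11190433 to 11204779) encodes the second E cyclin and followed with smaller changes. FPKM was 13.5, 15.8 and 17.6 at E10.5, 7.34, 7.47 and 7.18 at E14.5, and 4.39, 5.15 and 4.8 at E16.5, again without overlap between stages. It fell by 1.11 to E14.5 (SE 0.117, edgeR adjusted p = 2.5e-05) and by 1.56 to E16.5 (SE 0.121, edgeR adjusted p = 1.2e-06), which are decreases of 2.16-fold and 2.95-fold. The first of these lies close to the 2-fold minimum, and limma on log2(FPKM + 1) put it at -0.99, under that minimum.

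*Ccne1* was the main E cyclin in pNC, with 70.4% ± 2.57 of the summed E cyclin FPKM, and held 57.4% ± 1.60 and 50.2% ± 3.53 in the 2 cornea stages. With TMM-scaled counts its share was 61.4%, 47.4% and 40.2%. At E16.5 the 2 genes could not be ordered, with mean FPKM of 4.85 ± 0.808 and 4.78 ± 0.380. The E cyclin sum was 52.96 ± 5.64, 17.24 ± 0.795 and 9.627 ± 1.04 FPKM at the 3 stages.

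Of the Cip/Kip inhibitors, *Cdkn1a* (p21, Entrez Gene 12575, chromosome 17, 29090979 to 29100722) showed the largest rise. It encodes an inhibitor of CDK2 complexes and is a classic target of p53. FPKM was 3.33, 3.36 and 3.45 at E10.5, 4.96, 0.89 and 2.11 at E14.5, and 26.6, 15.3 and 15.3 at E16.5. The pNC samples were close together, the E14.5 samples spread above and below them, and all 3 E16.5 samples were above every other sample. Depth was low at E14.5, where the expected counts were 83, 15 and 36. From E14.5 to E16.5 *Cdkn1a* rose by 3.0 on the log2 scale (SE 0.426, edgeR adjusted p = 9.0e-04), an 8.0-fold increase (a log2 rise of 3.80 without E14.5 replicate 1), and from E10.5 to E16.5 by 2.64 (SE 0.413, edgeR adjusted p = 1.8e-04), a 6.23-fold increase.

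From E10.5 to E14.5 the log2 fold change of *Cdkn1a* was -0.36 (95% confidence interval -1.38 to 0.66, edgeR adjusted p = 0.531). This value rested on single samples. Without E14.5 replicate 1 it was -1.16 and was called lower (edgeR adjusted p = 0.023), and without E14.5 replicate 2 it was 0.06. The direction in this interval therefore depended on the samples kept.

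The set of RefSeq (GRCm38.p6) promoters used here holds entries for 6 of the 10 genes, 9 entries in all. It holds none for *Ccnd1*, *Ccnd2*, *Ccne2* and *Cdkn1c*, which is a limit of that set and not of RefSeq. The bases before the start sites of *Cdkn1a*, which rose, and of *Ccne1*, which fell, are shown because, among called genes with an entry, these had the largest rise and the largest fall. The 250 bases before each start were searched on both strands for E2F sites (TTTCCCGC, TTTCGCGC, TTTGCCGC and TTTGGCGC), the E-box CACGTG, the CHR element TTTGAA, the GC box GGGCGG and the p53 response element, and matches are in capitals. *Cdkn1a* has 2 annotated starts 2790 bases apart. The first stretch, chr17:29090729-29090975 on the plus strand, holds 2 overlapping p53 response element matches that begin 73 and 51 bases before the start, and no GC box. The second, chr17:29093519-29093768 on the plus strand, lies within an intron of the longer transcript and holds 2 GC boxes. The *Ccne1* stretch, chr7:38107534-38107740 on the minus strand, holds 4 GC boxes, the last 43 bases of its window being left out because GENCODE places an exon there.
Cdkn1a first start: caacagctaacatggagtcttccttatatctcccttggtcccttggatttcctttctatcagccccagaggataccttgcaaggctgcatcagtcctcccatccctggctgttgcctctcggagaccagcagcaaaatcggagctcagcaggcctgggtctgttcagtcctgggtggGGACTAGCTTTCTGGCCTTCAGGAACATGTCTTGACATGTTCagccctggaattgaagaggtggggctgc
Cdkn1a second start: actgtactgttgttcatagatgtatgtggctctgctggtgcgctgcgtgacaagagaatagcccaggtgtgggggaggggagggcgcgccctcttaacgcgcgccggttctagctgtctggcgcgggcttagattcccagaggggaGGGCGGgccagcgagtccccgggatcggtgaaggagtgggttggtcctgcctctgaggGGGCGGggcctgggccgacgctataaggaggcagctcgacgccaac
Ccne1: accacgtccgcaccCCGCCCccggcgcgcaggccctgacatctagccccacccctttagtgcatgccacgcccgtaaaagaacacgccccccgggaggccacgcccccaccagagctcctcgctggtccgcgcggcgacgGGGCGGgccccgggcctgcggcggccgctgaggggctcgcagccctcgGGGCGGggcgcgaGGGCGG
A p53 response element match, at most 1 mismatch outside the cores of its pair of 10-base parts and at most 13 bases between them, occurred in 0.356% of the 32851 promoter entries, and a GC box in 32.7%. E2F sites occurred in 1.86%, the E-box in 6.02% and the CHR element in 16% of all entries, and in none of the 9 entries of these genes. *Ccnd3*, *Cdkn1b*, *Cdkn2d* and the second entry of *Cdkn2c* also held GC boxes. A match is a description of the letters in these windows, and binding was not measured.

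Other p53 targets were read beside *Cdkn1a*. Of a list of 12, 1 was called higher from E10.5 to E14.5, 3 from E10.5 to E16.5 and 1 from E14.5 to E16.5. All tested genes were called higher at 13.6%, 19.4% and 6.26%, so these counts are near the background. *Phlda3*, an inhibitor of Akt signaling, rose by 2.25 (SE 0.199) and *Fas*, a death receptor, by 2.31 (SE 0.386) on the log2 scale from E10.5 to E16.5, and *Ccng1* (cyclin G1) by 1.01 (SE 0.131). *Fas* was also the gene called between the cornea stages, with a rise of 1.58 (SE 0.354, edgeR adjusted p = 0.00665). Its mean FPKM was low, at 0.467, 0.51 and 1.39 at the 3 stages, and NOISeq called neither rise of *Fas*. The list's median log2 fold change was 0.11, 0.35 and 0.23 in the 3 comparisons, and *Trp53*, which encodes p53, fell by 1.18 (SE 0.0958) from E10.5 to E16.5.

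*Cdkn1c* (p57, Entrez Gene 12577, chromosome 7, 143458339 to 143461059), an imprinted gene expressed from the maternal allele, was the most abundant of the 10 genes at E10.5 and E16.5. FPKM was 200, 199 and 191 at E10.5, 191, 106 and 111 at E14.5, and 356, 274 and 290 at E16.5. Every E14.5 sample was below every E10.5 sample, though replicate 1 only just, and every E16.5 sample was above all others. From E14.5 to E16.5 *Cdkn1c* rose by 1.33 on the log2 scale (SE 0.196, edgeR adjusted p = 0.00102), a 2.52-fold increase, and without E14.5 replicate 1 this rise was 1.65. Its changes from E10.5, -0.55 to E14.5 (SE 0.194, edgeR adjusted p = 0.0325) and 0.78 to E16.5 (SE 0.194, edgeR adjusted p = 0.00385), stayed under the 2-fold minimum. Without E14.5 replicate 1 the first of these was -0.86 (edgeR adjusted p = 2.7e-05).

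*Cdkn1c* lies in a cluster of imprinted genes, and 15 imprinted genes, neighbors and others, were read beside it. Of the 14 tested, 3 were called higher and 1 lower from E10.5 to E14.5, 7 higher and 3 lower from E10.5 to E16.5, and 3 higher from E14.5 to E16.5. Of all tested genes, 13.6%, 19.4% and 6.26% were higher and 7.97% and 15.4% lower in these comparisons, so the counts of lower genes are near the background. Those that rose between the cornea stages were the neighbor *Slc22a18* (1.55, SE 0.306), a membrane transporter, and, elsewhere in the genome, *Dlk1* (1.45, SE 0.225) and the noncoding *Meg3* (1.61, SE 0.258). From E10.5 to E16.5, 4 of the 8 tested neighbors were called higher and 1 lower. Among them, *Igf2* rose by 1.18 (SE 0.117), *H19* by 1.38 (SE 0.0985) and *Osbpl5* by 2.38 (SE 0.103). The neighbor *Kcnq1* fell by 1.96 (SE 0.511), at a low mean FPKM of 0.55 and 0.123. Of the other imprinted genes, *Grb10* and *Mest* fell by 1.26 (SE 0.147) and 1.70 (SE 0.133). The direction therefore differed among imprinted genes.

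*Cdkn1b* (p27, Entrez Gene 12576, chromosome 6, 134920401 to 134925525) was not called in any comparison. FPKM was 20.2, 21.4 and 16.3 at E10.5, 20.5, 19.5 and 19.2 at E14.5, and 24.9, 21.0 and 19.7 at E16.5, with overlap between all stages. The change from E10.5 to E16.5 was 0.33 (95% confidence interval 0.07 to 0.58, edgeR adjusted p = 0.0258), which is under the fold minimum. In the Cip/Kip class, *Cdkn1c* held 89.7% ± 0.873, 85.4% ± 2.53 and 88.3% ± 0.929 of the summed FPKM at the 3 stages, and *Cdkn1a* 1.54% ± 0.0790, 1.53% ± 0.795 and 5.39% ± 0.986. The class sum was 219.4 ± 7.04, 158.7 ± 50.4 and 347.4 ± 52.1 FPKM.

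The Ink4 inhibitors differed from each other. *Cdkn2c* (p18, Entrez Gene 12580, chromosome 4, 109660876 to 109666756) had the lowest mean FPKM of the 10 genes at E10.5 and E16.5, at 1.31, 1.80 and 1.34 at E10.5, 5.39, 3.20 and 3.66 at E14.5, and 2.91, 3.29 and 2.87 at E16.5. Every corneal sample was above every pNC sample, and the cornea stages overlapped. *Cdkn2c* rose by 1.44 to E14.5 (SE 0.280, edgeR adjusted p = 0.00135), a 2.70-fold increase, and by 1.17 to E16.5 (SE 0.287, edgeR adjusted p = 0.00378), a 2.24-fold increase. Without E14.5 replicate 1 the rise to E14.5 was 1.196 (edgeR adjusted p = 0.00416). These values rest on expected counts of 13, 18 and 13 at E10.5, and neither rise was called by NOISeq. Limma put the rise to E16.5 at 0.70 with log2(FPKM + 1) and 0.99 with log2(FPKM + 0.1), under the fold minimum.

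*Cdkn2d* (p19, Entrez Gene 12581, chromosome 9, 21288459 to 21291421) overlapped between all stages. Its level was 16.3, 19.6 and 15.4 at E10.5, 18.1, 15.3 and 14.01 at E14.5, and 17.4, 14.8 and 18.3 FPKM at E16.5. On the log2 scale it changed by -0.13 (95% confidence interval -0.43 to 0.18) to E14.5 and by 0.13 (95% confidence interval -0.18 to 0.43) to E16.5, the sign of the latter turning with library totals. The other Ink4 genes were much lower at E10.5. *Cdkn2b* (p15) had 0 to 0.08 FPKM in pNC, 2.48 to 3.54 and 1.56 to 2.07 in the younger and older corneas, and both comparisons with E10.5 were called higher. Near 0 in pNC, it passed the filter on low counts through the corneal samples, so these calls follow in part from that filter. NOISeq, at a probability of at least 0.8, called its rise to E14.5 (0.801) but not that to E16.5 (0.759). *Cdkn2a* was too low for testing, with at most 1.01 FPKM in any sample.

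Placed in order of mean FPKM, the genes ran at E10.5 from *Cdkn1c* at 197 ± 4.61 over *Ccnd3* (118 ± 11.4), *Ccnd1* (69.2 ± 6.91), *Ccnd2* (58.4 ± 3.51) and *Ccne1* (37.3 ± 4.22). *Cdkn1b*, *Cdkn2d* and *Ccne2* followed at 19.3 ± 2.63, 17.1 ± 2.22 and 15.7 ± 2.06 and did not differ beyond their spread. *Cdkn1a* (3.38 ± 0.0624) and *Cdkn2c* (1.48 ± 0.275) were lowest. At E16.5, *Ccnd1* (3.54 ± 0.666) stood next to *Cdkn2c* (3.02 ± 0.232) at the bottom, and the E cyclins were just above them. *Cdkn1a* (19.1 ± 6.48) had come to overlap *Cdkn1b* (21.8 ± 2.70) and *Cdkn2d* (16.8 ± 1.83). Every *Cdkn1b* sample of E16.5 was above every *Cdkn2d* sample. The E14.5 samples had *Cdkn1c* (136 ± 47.7) and *Ccnd3* (107 ± 6.31) on top, and these overlapped in their samples.

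Whether the change of a gene differed between the interval from E10.5 to E14.5, of 4 days, and that from E14.5 to E16.5, of 2 days, was tested as a contrast of the 2 steps in the same edgeR model, at an adjusted p under 0.05. The contrast was chosen after the values had been seen. It compares whole intervals of unlike length and not change per day, so a steady fall or rise would also give a larger first step. The first step was more negative than the second for 4 of the 10 genes, with 5.85% of all tested genes so called, and more positive for 1, with 11.7%. For *Ccnd1* the steps differed by -2.72 (edgeR adjusted p = 0.00191) and for *Ccne1* by -1.06 (edgeR adjusted p = 0.0117), their fall being larger in the first step. For *Cdkn1a* (-3.36, edgeR adjusted p = 0.0149) and *Cdkn1c* (-1.88, edgeR adjusted p = 0.00402) the rise came in the second step. Without E14.5 replicate 1 these differences were -2.18 for *Ccnd1*, -4.96 for *Cdkn1a* and -2.51 for *Cdkn1c*, and all 3 kept their call. *Cdkn2c* differed the other way by 1.70 (edgeR adjusted p = 0.0253). Without E14.5 replicate 3 the difference of *Cdkn1a* was -3.11 and lost its call (edgeR adjusted p = 0.0574). *Cdkn2c* lost its call in 6 of the 9 fits that left out 1 sample, with the smallest difference, 1.23, without E14.5 replicate 1. The other samples whose removal took the call were E14.5 replicate 3 and replicates 1 and 3 of both E10.5 and E16.5. *Ccne2* missed the threshold (-0.66, edgeR adjusted p = 0.0556) and passed it without E10.5 replicate 1 (-0.75, edgeR adjusted p = 0.0314).

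Of the log2 fall from E10.5 to E16.5, 82.8% had occurred by E14.5 for *Ccnd1*, 69.0% for *Ccne1* and 71.0% for *Ccne2*. For cyclins and markers of S, G2 and M phase the share was 31.1% for *Ccnb2*, 32.4% for *Mki67*, 38.3% for *Top2a*, 40.2% for *Cdk1*, 41.6% each for *Ccna2* and *Ccnb1*, and 55.2% for *Pcna*. All 7 of these genes were called lower between E14.5 and E16.5, where 5.47% of all genes were, and only *Pcna* from E10.5 to E14.5, where 7.97% were. The first interval lasted 4 days and the second 2 days, and these shares were not scaled to time. The shares of the members and of the 7 genes were not tested against each other.

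**Figure D4:**
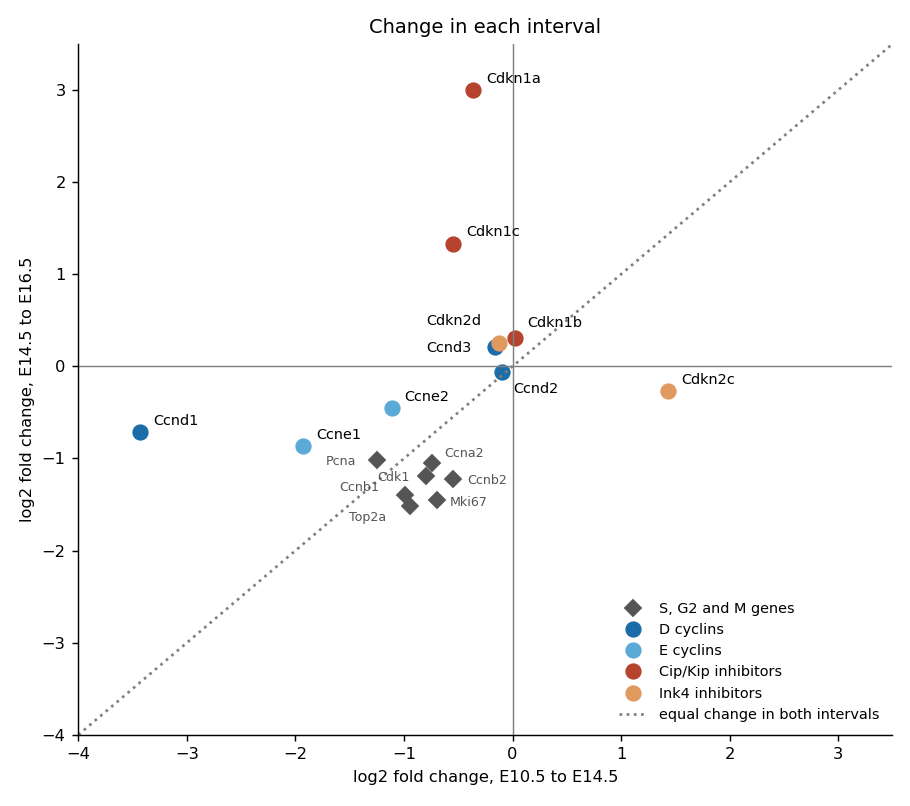
The log2 change in the first interval, E10.5 to E14.5 (x axis), against that from E14.5 to E16.5 (y axis), from the edgeR model. Circles are the 10 genes by class and diamonds are 7 genes of S, G2 and M phase. The dotted line marks equal change in both intervals, which differ in length. *Ccnd1* (-3.43 and -0.71) lies far to the left and *Cdkn1a* (-0.36 and 3.0) far up, while the diamonds lie near the line or below it.

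The other parts of the G1 pathway were read from a list of 33 genes, of which 32 were tested. From E10.5 to E14.5, 4 were called higher and 5 lower, with a median log2 fold change of -0.42. From E10.5 to E16.5, 5 were higher and 13 lower (median -0.80), and from E14.5 to E16.5, 2 were lower (median -0.38). Of all tested genes, 13.6% and 19.4% were higher in the comparisons with E10.5 and 7.97%, 15.4% and 5.47% lower in the 3 comparisons, so the counts of higher genes and the count between the cornea stages are near the background. The counts of higher genes include *Cdkn2b*, which passed the filter on low counts through the corneal samples. Of the kinases partnered by these cyclins, *Cdk4* and *Cdk2* fell from E10.5 to E16.5, and only *Cdk4* passed the fold minimum. *Cdk4*, partner of the D cyclins, fell by 1.45 (SE 0.114) from E10.5 to E16.5, from 605 ± 33.5 to 199 ± 2.91 FPKM. *Cdk6* stayed at low FPKM, with 2.81 ± 0.124, 3.10 ± 0.589 and 2.63 ± 0.455 at the 3 stages. *Cdk2*, partner of the E cyclins, changed by -0.84 (95% confidence interval -1.09 to -0.59, edgeR adjusted p = 5.7e-05) to E16.5, under the fold minimum.

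Of the 10 E2F and DP factors, 7 were called lower at E16.5 than at E10.5, where 15.4% of all tested genes were, and the others, *E2f4*, *E2f6* and *Tfdp2*, changed by -0.76, -0.86 and -0.64, under the fold minimum. *E2f2* fell by 2.42 (SE 0.166) and *E2f1* fell by 1.304 (SE 0.139). The other called factors in that comparison, *E2f3*, *E2f5*, *E2f7*, *E2f8* and *Tfdp1*, changed by -1.57, -1.6, -1.53, -1.08 and -1.02. *E2f2* and *Mycn* were the list members that also passed the 2-fold minimum between the cornea stages, where they fell by 1.35 (SE 0.171) and 1.53 (SE 0.183), and 18 list members passed the edgeR adjusted p there when no fold minimum was set. *Skp2* and *Cks1b*, which direct degradation of p27, fell by 1.77 (SE 0.128) and 1.86 (SE 0.131) from E10.5 to E16.5, and the phosphatase *Cdc25a* fell by 1.45 (SE 0.123). Among pocket proteins, *Rbl2* (p130), typical of quiescent cells, rose by 1.69 (SE 0.113) to E14.5 and 2.14 (SE 0.113) to E16.5, whereas *Rb1* changed by -0.07 (95% confidence interval -0.35 to 0.22) to E16.5. Upstream factors went both ways. *Mycn* fell by 3.11 (SE 0.178) to E16.5, whereas *Foxo1* and *Foxo3*, which can activate *Cdkn1b*, rose by 1.38 (SE 0.154) and 1.63 (SE 0.136), and *Klf4*, an epithelial regulator, by 1.67 (SE 0.499).

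**Figure D5:**
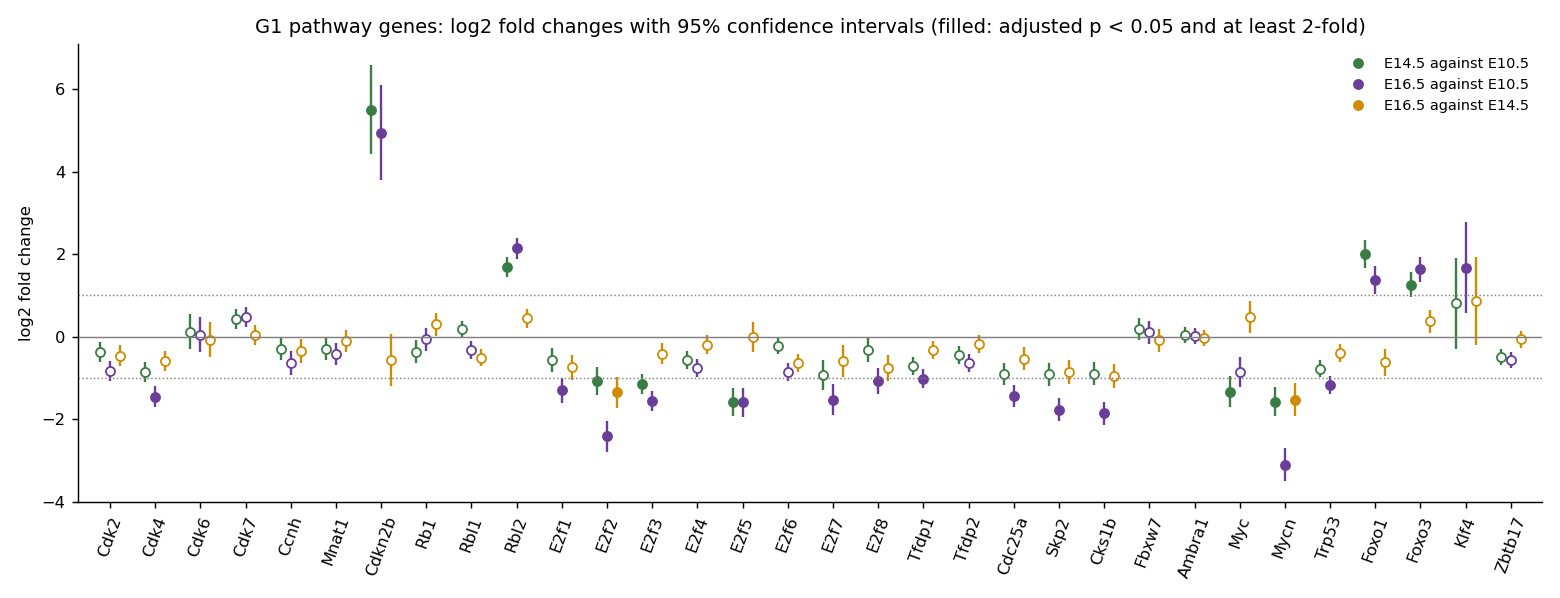
Log2 fold change (y axis) of the 32 tested genes of the G1 pathway list (x axis) in the 3 comparisons of stages, by color. Bars are 95% confidence intervals, filled points were called and dotted lines mark a 2-fold change. Most points lie under 0 in the comparison of E16.5 with E10.5, and *Cdkn2b*, *Rbl2*, *Foxo1*, *Foxo3* and *Klf4* lie above it.

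For each member called in some comparison, the genes with the most similar profile over the 9 samples were found among 10866 genes, by Pearson's r of log2 CPM. The points fall into 3 stages, so r mostly reflects the order of the stages, and it is given as a description. *Ccnd1* was most like *Mest* (r = 0.999), *Tbx18* (0.996) and *Tubb3* (0.996). *Ccne1* was most like *Isy1*, *Hspd1* and *Dnajc2* (0.997 to 0.998), and *Ccne2* like *Ecd*, *Mthfd1l* and *Asns* (0.992 to 0.998). *Cdkn1a* and *Cdkn1c* shared *Atp1b3* and *Dgat2* among their 3 most similar genes, the others being *Tgfbr3* (0.978) for *Cdkn1a* and *L1cam* (0.993) for *Cdkn1c*. *Cdkn2c* was most like *Mrc1* (0.995), *Sap30l* (0.991) and *Lor* (0.985).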

How the data were processed

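The authors removed reads with adaptors, low quality or more than 10% unknown bases, mapped the rest with Bowtie2 and HISAT to GRCm38 and quantified genes with RSEM, as the submitters' processing notes and the methods name them. Each deposited sample holds expected counts, which are estimates and not normalized, and FPKM values that the authors scaled to transcript length and mapped fragments. Genes absent from a sample's list were taken as 0. Symbols and positions came from RefSeq genes of GRCm38.

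Expected counts were rounded, filtered with filterByExpr, scaled by TMM and fitted with edgeR 4.0.16 in R 4.3.3, with all 9 samples in 1 model of stage and adjustment over 14771 genes. The steps were tested on simulated data. Alternatives used DESeq2 1.42.0, limma 3.58.1, NOISeq probabilities (at least 0.8), other scalings and left-out samples. Samples are pools, and nothing states separate litters, so p-values measure the spread between these samples. Counts of replicates differed beyond sampling noise (chi-square over degrees of freedom at least 2.93). Counting intervals cover counting error only. The named genes are all 10 members, genes of the fixed lists that were called in a comparison, and the 3 genes most like each called member. *Cdk2*, *Cdk6*, *Rb1*, *Cdkn2a*, *E2f4*, *E2f6*, *Tfdp2* and the markers *Krt5*, *Krt12*, *Epcam* and *Trp63* are named outside that rule. The members and gene lists were chosen with earlier results of these data known.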

Additional observations from a re-analysis of the deposited data

How the results depend on the processing

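Over 20 alternatives, 574 of 600 values of the members in the 3 comparisons of stages kept their direction and their side of the threshold, 11 turned direction, 10 passed it and 5 no longer did. The alternatives that changed only the fold minimum reuse the main estimates, so direction could not turn there. In some fits the left-out sample was of a stage outside the comparison, which barely moved the fold change. Part of this agreement was therefore fixed in advance. NOISeq called 0 members higher from E10.5 to E14.5 and 1 from E10.5 to E16.5, where limma on log2(FPKM + 1) and log2(FPKM + 0.1) also called 1. Without a fold minimum, 4 members were higher from E10.5 to E16.5 and 2 lower from E14.5 to E16.5. A minimum of 0.58 on the log2 scale, library totals in place of TMM, and limma on log2(FPKM + 0.1) each called 1 member lower from E14.5 to E16.5, which was *Ccne1*. In the G1 pathway list, 23, 28 and 18 genes passed without a fold minimum, against 9, 18 and 2. With the minimum of 0.58, 16 passed from E10.5 to E14.5 and 10 from E14.5 to E16.5, where library totals and limma on log2(FPKM + 0.1) gave 4. Leaving out 1 sample gave 3 to 4 members lower from E10.5 to E14.5, the extra one being *Cdkn1a*, and 8 to 11, 17 to 18 and 2 to 3 genes of the list.

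With library totals, the median of all genes shifted by -0.15 and -0.16 in the comparisons of E16.5 with E10.5 and E14.5. The change of *Ccnd3* from E10.5 to E16.5 became -0.099 with library totals, -0.094 and -0.095 with limma and -0.097 with NOISeq, and that of *Cdkn2d* -0.024, -0.018, -0.018 and -0.020. With 1 sample left out, *Ccnd3* ranged from -0.032 to 0.096, *Cdkn1b* from E10.5 to E14.5 from -0.094 to 0.092, and *Cdkn1a* from -1.161 to 0.058. The difference of steps of *Ccnd2* became 0.136 with library totals, 0.130 and 0.132 with limma, and -0.137 to 0.088 with 1 sample left out. *Cdkn1a* lost that call without E14.5 replicate 3 (-3.11, edgeR adjusted p = 0.0574). The cause of these shifts was not tested.

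The deviations of same-numbered samples of different stages had a mean correlation of -0.0164 over 9 pairs (range -0.225 to 0.25). For the 18 pairs with different numbers the mean correlation was 0.00917 (range -0.207 to 0.188). Whether samples with the same number share more than that number was not tested. The fit with the replicate block left the counts of called members at 1 and 3, 2 and 3, and 2 and 0, higher and lower in the 3 comparisons. It took from *Cdkn2c* the call for the difference of steps (1.69, edgeR adjusted p = 0.0518).

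Depth limits *Cdkn1a* at E14.5, with 15 to 83 expected counts, and *Cdkn2c*, with 13 to 52. The spread at E14.5 was the widest, with a common dispersion of 0.0396 against 0.0113 at E10.5 and 0.00606 at E16.5.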

Other observations

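The balance of *Cdkn1a* against *Ccnd1* turned within the series. The log2 ratio of their FPKM in the same sample was -4.50, -4.40 and -4.16 at E10.5, 0.34, -3.36 and -1.61 at E14.5, and 3.25, 1.92 and 2.02 at E16.5. *Ccnd1* was thus the more abundant transcript in every pNC sample and *Cdkn1a* in every E16.5 sample, while E14.5 replicate 1 was on the side of *Cdkn1a* and the other two on that of *Ccnd1*. The log2 ratio of *Cdkn1c* to *Ccnd1* was 1.51 ± 0.113 (SD, n = 3), 4.42 ± 1.07 and 6.45 ± 0.484 at the 3 stages. These ratios are independent of library scaling and were not tested.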
